A study of Homo sapiens with 4 samples.

Results

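The genes described here are 60 genes listed as KRAB zinc finger genes in the clusters of human chromosome 19, out of 60725 genes in the count table. They were taken by name from a fixed list, and all 60 were found in the table by their Ensembl identifiers. No measured value entered the list, but it was chosen with earlier results of these data known. Of these, 54 had at least 10 counts in at least 2 libraries and were tested, beside 15356 genes tested in all. The cells were hTERT-RPE1, a telomerase-immortalized line derived from human retinal pigment epithelium, in a derivative that expresses the SunTag system. Cells of both groups were transfected in suspension with 10 nM siRNA, transfected again after 48 hours, and harvested 72 hours later, on day 5. The control group received a Silencer Select negative control siRNA and the knockdown group a pool of siRNAs against TOP2B, the topoisomerase that relaxes and untangles DNA by passing one double strand through another. Each group had 2 libraries of polyA RNA, described as separate biological replicates. The only difference in treatment is the siRNA, so loss of TOP2B and other effects of that pool cannot be told apart, and every library came from 1 cell line.

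Library totals ran from 20310259 to 23887013 counts, so that 1 CPM, the unit of counts scaled to library size by TMM, stood for 20.19 to 23.98 reads. The target itself checked the labels: TOP2B was at 154.7 and 143.4 CPM in the control libraries and at 15.27 and 13.28 CPM in the knockdown libraries, with 9.58% left. Of the markers of retinal pigment epithelium, RPE65 and TYR had 0 counts in each library and RLBP1 had at most 1, whereas MITF had 870 to 921, OTX2 252 to 285 and PAX6 1113 to 1680 counts. In CPM, 3 of the 12 markers of this tissue (PAX6, KRT8 and KRT18) were lower in both knockdown libraries than in either control. Another 5 were higher (BEST1, TYRP1, PMEL, MITF and OTX2), and the others, VIM among them, overlapped or were at 0. Few reads lay behind BEST1 (14 to 20 counts), TYRP1 (2 to 7) and PMEL (7 to 31). Over all genes tested, the groups did not overlap in 54.3%. The summed level of the 12 markers, mostly keratin and vimentin, was 2545 and 2898 CPM in controls and 2167 and 2526 CPM after knockdown. CD3E and EPCAM were at 0, PTPRC, CDH5, RBFOX3 and PECAM1 had at most 24 counts, and the sum of these 6 markers of other cell types was 1.17 and 1.31 CPM in controls and 0.707 and 0.347 CPM after knockdown. The part of the markers in the results was not tested.

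KRAB zinc finger proteins are the largest family of transcription factors in mammals, and many of their genes arose by tandem duplication on chromosome 19. The array of C2H2 fingers at the C-terminal end reads DNA, with each finger touching a few bases. The KRAB domain at the N-terminal end binds TRIM28, which brings in the histone methyltransferase SETDB1 and HP1 proteins, so that chromatin at the bound site is silenced. Many targets are transposable elements. The genes of these clusters are themselves known to carry H3K9me3 over their finger-coding exons.

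Translation of the GENCODE canonical transcripts gave proteins of 390 to 836 residues, with a median of 597.5. They held 7 to 22 C2H2 patterns each, with a median of 12 and a total of 768. A KRAB-box pattern was found in 55 of the 60 proteins. It was not found in the canonical products of ZNF121, ZNF180, ZNF260, ZNF329 and ZNF345. The sequence of the classic finger-to-finger linker (TGEKP) occurred at least once in 57 of the 60 proteins. There were 378 repeats in all, with a median of 6 and up to 15 (ZNF420). They were counted over the whole protein, and their place between fingers was not checked.

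The bases that code this linker show how alike the members are where the protein is the same. The first linker is printed for the 3 members that passed the test, for ZNF302, just outside the threshold, and for ZNF317. The last had the highest level per kilobase of exon among the members tested. The bases are from the GRCh38 genome on the coding strand, with the 15 linker bases in capitals between the neighbouring codons.
ZNF430: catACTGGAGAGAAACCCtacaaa
ZNF266: cacACTGGAGAGAAACCTtataaa
ZNF302: catACAGGAGAGAAGCCCtatgaa
ZNF121: catACTGGGGAGAAACCCtatgaa
ZNF317: cacACCGGGGAGAAGCCTtacgag
These lie at chr19:21057071-21057094 on the plus strand (ZNF430), chr19:9414118-9414141 on the minus strand (ZNF266), chr19:34684704-34684727 on the plus strand (ZNF302), chr19:9566594-9566617 on the minus strand (ZNF121) and chr19:9160375-9160398 on the plus strand (ZNF317), in coding exons. Over the members with a linker, the 15 bases took 27 different forms. A family with so many like stretches could share reads. Of the 65-base windows of the members' exons, which is the length of the reads, a median of 96.9% occurred in no other annotated gene, and 39 of the 60 members were at 95% or more. The lowest shares were 41.5% in ZNF20, 44.5% in ZNF490, 55.9% in ZNF223 and 56.1% in ZNF224, and 9 members were under 80%. In ZNF20, ZNF490, ZNF223 and ZNF224, genes annotated at the same place overlap 59.6%, 51.1%, 45.7% and 42.4% of the exon bases. The gene that shared most of their windows was such an overlapping gene, with both strands searched. ZNF417, at 70.2%, shared most with ZNF587. Counts of these genes are uncertain to that extent. How strand was treated in counting is unknown here, and 28 of the members have no exon base in common with another gene on either strand.

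Few of these genes were called between the knockdown and control libraries. ZNF430 and ZNF266 were called higher and ZNF121 lower, with estimates below 2-fold. The other 51 tested members did not pass the test, which does not show that they were unchanged. In bulk RNA, fewer cells of a kind and less RNA per cell cannot be told apart. Thus 3 of 54 members (5.56%) were called at an adjusted p below 0.05, against 10.8% of all genes tested. The share called higher was 3.7% against 6.66% of all genes, and the share called lower was 1.85% against 4.18%. At an unadjusted p below 0.05 there were 7 members (13%) against 26.3% of all genes. The 2 groups did not overlap in 18 members (33.3%), 9 higher and 9 lower, against 54.3% of all genes. The members were less deeply covered than the rest: their median mean count was 156 against 457 for all genes, and the median standard error of the log2 fold change was 0.19 against 0.16. Whether this depth accounts for the lower share was not tested.

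ZNF430, at chr19:21020634-21060050 on the plus strand, was at 5.13 and 5.126 CPM in the control libraries and at 8.059 and 9.411 CPM in the knockdown libraries. Both knockdown libraries lay above both controls. The mean rose from 5.128 ± 0.00249 to 8.735 ± 0.956 CPM (SD, n = 2 each), a log2 fold change of 0.77 (SE 0.18, 95% interval 0.36 to 1.17, edgeR quasi-likelihood adjusted p = 0.0252). Leaving out knockdown replicate 2, the higher of its pair, gave 0.64 and an adjusted p of 0.136 in edgeR, and leaving out any other library kept the call.

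ZNF266, at chr19:9412429-9435573 on the minus strand, was at 11.59 and 10.78 CPM in controls and at 18.33 and 15.36 CPM after knockdown. The groups were again separate, with the wider spread in the knockdown. Its mean rose from 11.19 ± 0.577 to 16.84 ± 2.106 CPM (SD, n = 2 each), a log2 fold change of 0.59 (SE 0.16, 95% interval 0.24 to 0.94, edgeR adjusted p = 0.0394). Without control replicate 2 the edgeR adjusted p was 0.134, and without knockdown replicate 1 it was 0.235, with log2 fold changes of 0.54 and 0.46.

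ZNF121, at chr19:9560329-9584504 on the minus strand, was the called member that fell. It was at 38.83 and 33.08 CPM in controls and at 27.34 and 23.18 CPM after knockdown, with no overlap. The mean went from 35.96 ± 4.065 to 25.26 ± 2.937 CPM (SD, n = 2 each), a log2 fold change of -0.51 (SE 0.14, 95% interval -0.82 to -0.19, edgeR adjusted p = 0.0475). Without control replicate 1 the edgeR adjusted p was 0.213, and without knockdown replicate 2 it was 0.209, with log2 fold changes of -0.39 and -0.41. None of the 3 calls held in every fit that left out 1 library. In such a fit the lone library of a group is assumed to vary like those of the other group. The exons of ZNF430, ZNF266 and ZNF121 overlap no other annotated gene, and 99.1%, 100% and 99.5% of their windows were found in no other gene.

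ZNF302, at chr19:34677639-34686397 on the plus strand, lay just outside the threshold. It was at 25.32 and 20.07 CPM in controls and at 34.69 and 30.61 CPM after knockdown, with no overlap between the groups. The log2 fold change was 0.52 (SE 0.15, 95% interval 0.19 to 0.86, edgeR adjusted p = 0.0507). It was called without control replicate 1 (0.70, edgeR adjusted p = 0.00977) and without knockdown replicate 2 (0.60, edgeR adjusted p = 0.0319). It was further from the threshold without control replicate 2 (0.37, edgeR adjusted p = 0.306) and without knockdown replicate 1 (0.44, edgeR adjusted p = 0.182).

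**Figure D1:**
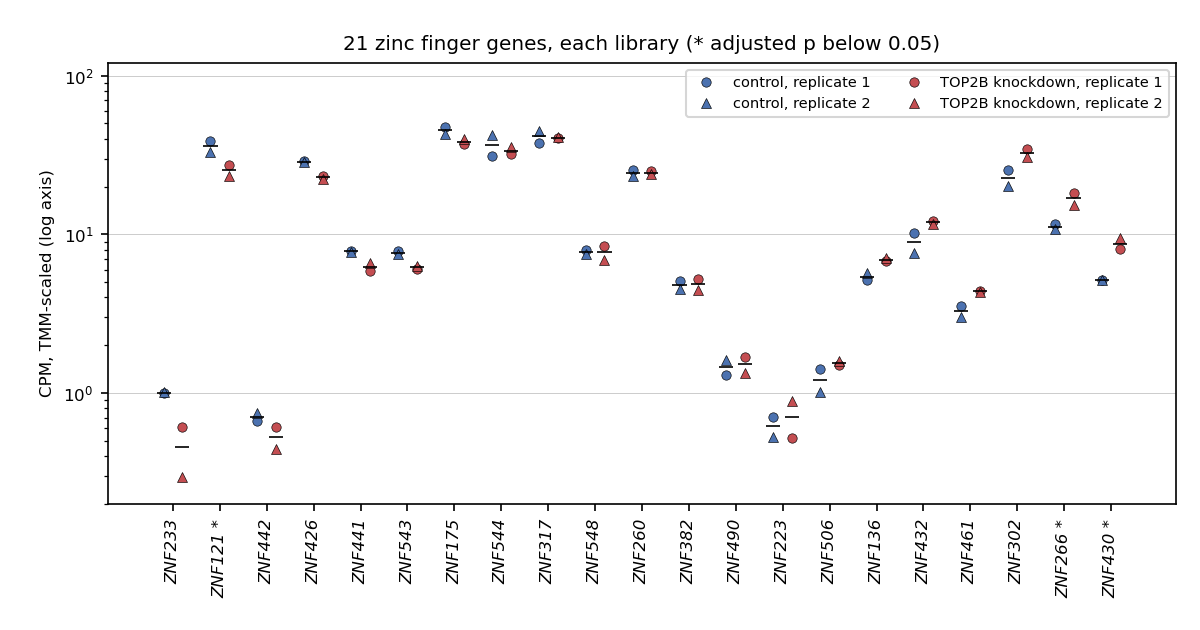
Levels of the 21 members named by rule (CPM scaled by TMM, log axis) in each library, ordered by log2 fold change, with the mean of each group as a black line. Blue marks control and red TOP2B knockdown libraries, circles replicate 1 and triangles replicate 2; the asterisk marks the 3 members called, whose groups do not overlap, and most of the genes in the middle have overlapping groups.

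Next in size among the uncalled members on the positive side were ZNF461, ZNF432, ZNF136 and ZNF506. ZNF461 was at 3.545 and 3.023 CPM in controls against 4.383 and 4.359 CPM (log2 fold change 0.41, edgeR adjusted p = 0.261). ZNF432 was at 10.26 and 7.668 against 12.07 and 11.69 CPM (0.41, edgeR adjusted p = 0.186). ZNF136 was at 5.13 and 5.696 against 6.787 and 7.083 CPM (0.36, edgeR adjusted p = 0.247). In each of these the knockdown libraries were the higher ones, by differences that did not pass the test. ZNF506, one of the lowest members, was at 1.418 and 1.008 against 1.508 and 1.585 CPM (log2 fold change 0.35, 95% interval -0.38 to 1.07).

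On the negative side, ZNF233 had the largest difference and few reads behind it, with 24 and 23 counts in controls and 13 and 6 after knockdown. Its log2 fold change was -1.12, with a 95% interval of -2.11 to -0.14 and an edgeR adjusted p of 0.138, and no other member exceeded a 2-fold difference. ZNF442 had 16 and 17 counts against 13 and 9 (log2 fold change -0.41, edgeR adjusted p = 0.594). At such depth a change of this size was not detectable. ZNF426 was better covered, at 28.99 and 28.44 CPM in controls against 23.24 and 22.39 CPM (log2 fold change -0.33, edgeR adjusted p = 0.121). ZNF441 was at 7.883 and 7.755 against 5.891 and 6.637 CPM (-0.32, edgeR adjusted p = 0.283). In ZNF543 the levels were 7.799 and 7.536 against 6.033 and 6.34 CPM (-0.31, edgeR adjusted p = 0.292). The control libraries were the higher ones in all of these.

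Most members differed little, in both directions. The log2 fold change was above 0 in 30 and below 0 in 24 of the 54, with a median of 0.03 and quartiles of -0.18 and 0.17. Over all genes tested the median was -0.003 and the quartiles -0.23 and 0.26. Of the 51 members not called, 47 had a 95% interval that lay within a 2-fold change in either direction. The intervals of ZNF442, ZNF506, ZNF223 and ZNF233 reached further, as did that of the called ZNF430.

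The genes with the smallest differences among those with a mean of at least 100 counts were ZNF548, ZNF260 and ZNF382. ZNF548 was at 7.966 and 7.493 CPM in controls against 8.436 and 6.935 CPM (log2 fold change -0.01, 95% interval -0.41 to 0.39). ZNF260 was at 25.36 and 23.31 against 24.98 and 24.02 CPM (0.01, 95% interval -0.28 to 0.30). ZNF382, known as a transcriptional repressor, was at 5.088 and 4.513 against 5.231 and 4.458 CPM (0.01, 95% interval -0.44 to 0.47). In all 3 the libraries of the groups overlapped.

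Per kilobase of exon, the members' mean levels over the 4 libraries ran from 0.0936 to 8.13 CPM, with a median of 1.25 against 4.06 for all genes tested and 5.43 for protein-coding ones. ZNF317 was highest at 8.13 CPM per kb, followed by ZNF175 at 5.64, ZNF302 at 5.50, ZNF544 at 4.88 and ZNF260 at 4.38. ZNF317 showed no separation of the groups, at 37.87 and 44.91 CPM in controls and 40.44 and 40.87 CPM after knockdown (log2 fold change -0.03, 95% interval -0.31 to 0.26). ZNF175 was at 47.71 and 42.85 against 37.00 and 39.63 CPM (-0.24, edgeR adjusted p = 0.247). ZNF544 was at 31.07 and 42.50 against 31.91 and 35.42 CPM (-0.13, 95% interval -0.48 to 0.23). Thus the replicates of ZNF544 differed more than its groups.

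The lowest levels were those of ZNF442 (0.0936 CPM per kb), ZNF506 (0.145), ZNF233 (0.18), ZNF223 (0.2) and ZNF490 (0.219). ZNF223 was at 0.709 and 0.5258 CPM in controls against 0.5184 and 0.8916 CPM (log2 fold change 0.18, 95% interval -0.82 to 1.18). ZNF490 was at 1.293 and 1.621 against 1.697 and 1.337 CPM (0.06, 95% interval -0.64 to 0.76), and 51.1% of its exon bases overlap another gene.

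The 6 members under the count minimum were ZNF20 (7, 1, 4 and 4 counts in control replicates 1 and 2 and knockdown replicates 1 and 2), ZNF345 (1, 4, 8 and 12), ZNF415 (1 in each), ZNF418 (4, 4, 2 and 5), ZNF528 (0, 0, 4 and 2) and ZNF540 (5, 6, 1 and 1). Just inside the minimum were ZNF442, ZNF233 and ZNF223, the last with 17, 12, 11 and 18 counts. Each tested member had at least 10 counts in at least 1 library of each group. In ZNF233 and ZNF442, knockdown replicate 2 was below 10, with 6 and 9 counts, so that only the control group had 2 libraries at the minimum.

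By position, the members were grouped into 12 runs in which neighbouring genes start less than 1000 kb apart, from chr19:9140397 to 58475436 in all. The run from ZNF317 to ZNF121 held 4 members and 2 calls in opposite directions. There ZNF266 rose and ZNF121, 124.8 kb further along and on the same strand, fell, with ZNF426 between them. The run from ZNF430 to ZNF429 held 4 members, with 1 call and 3 log2 fold changes above 0 (median 0.19, lowest -0.02). Runs of 4 or more members without a call had medians near 0: -0.13 from ZNF441 to ZNF490 (8 tested), 0.01 from ZNF260 to ZNF540 (7 tested), -0.05 from ZNF221 to ZNF180 (12 tested), 0.09 from ZNF175 to ZNF331 (4 tested) and 0.07 from ZNF543 to ZNF324 (9 tested). Within the run of 12, the log2 fold changes went from -1.12 to 0.27. The remaining runs held 1 or 2 members each.

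**Figure D2:**
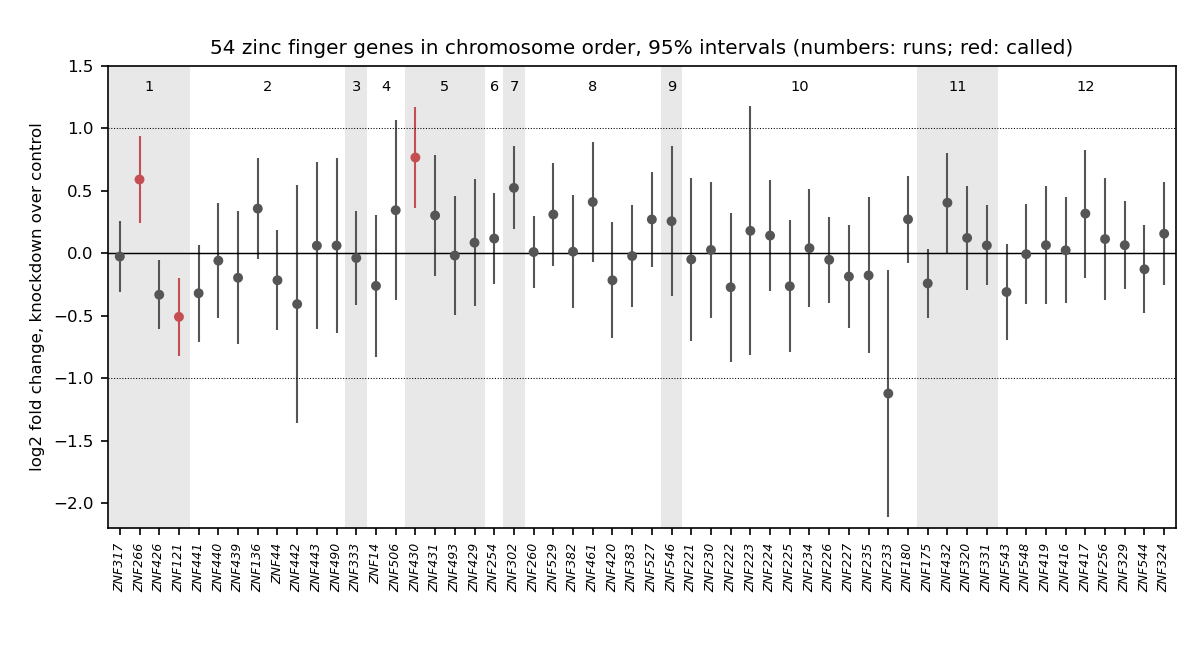
Log2 fold change, knockdown over control, of the 54 tested members in chromosome order, with 95% intervals from the edgeR fit and dotted lines at a 2-fold change. Shading and numbers mark the 12 runs, and red marks ZNF266, ZNF121 and ZNF430; run 1 holds called members of opposite sign, and the interval of most others crosses 0.

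Around ZNF430 the zinc finger genes that are not on the list were examined after the values of the called genes had been seen, so what follows is a description. Chaining all protein-coding genes of chromosome 19 with a ZNF or ZFP symbol by the same distance put ZNF430 in a stretch from ZNF101 to ZNF254 (chr19:19668796-24129968), with 37 genes in the table, 7 of them members. The stretch was chosen because it holds ZNF430, which is counted in it, so the shares of all genes are no test of it. Of the 23 tested, 20 had a log2 fold change above 0, against 7640 of the 15356 genes tested, and 4 were called, all higher, against 6.66% of all genes. These were ZNF430, ZNF100 (1.19, edgeR adjusted p = 0.00642), ZNF675 (0.79, edgeR adjusted p = 0.0171) and ZNF714 (0.45, edgeR adjusted p = 0.0496). ZNF714 was not called with library size alone (edgeR adjusted p = 0.0529), in DESeq2 (adjusted p = 0.0806) or without any 1 of the libraries (edgeR adjusted p = 0.0707 to 0.269), and ZNF675 was not called without knockdown replicate 2 (edgeR adjusted p = 0.0654). The median of the 23 was 0.44, and that of the 7 members among them was 0.12. Leaving out 1 library at a time gave medians of 0.33 to 0.39 for the stretch and 1 to 3 calls, the 1 call being without knockdown replicate 2. Windows shared with other genes were not computed for the genes that are not members. Among the 16 stretches chained in this way, that from ZNF175 to ZNF331 had 23 of 31 tested genes above 0 (median 0.22), with 2 called higher. In that from ZNF575 to ZNF296, 8 of 23 were above 0 (median -0.08), with no call.

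Over chromosome 19 as a whole, 154 other zinc finger genes were tested, of which 5 were called higher and 2 lower (4.55%), with a median log2 fold change of 0.04. Among those called, ZNF100, ZNF675 and ZNF714 lay in the stretch from ZNF101 to ZNF254 that holds ZNF430. Outside it, ZNF614 (0.83, edgeR adjusted p = 0.00878) and ZNF525 (0.72, edgeR adjusted p = 0.0374) rose, and ZNF580 (-0.72, edgeR adjusted p = 0.00616) and ZNF579 (-0.50, edgeR adjusted p = 0.0477) fell. DESeq2 did not call ZNF525 (adjusted p = 0.0528) or ZNF579 (adjusted p = 0.0651). ZNF579 lost its edgeR call without any 1 of the libraries (adjusted p = 0.091 to 0.186), and ZNF525 lost it without control replicate 2 (adjusted p = 0.182) and without knockdown replicate 1 (adjusted p = 0.117). ZNF614, ZNF580 and ZNF100 were called in all 4 of these fits and in DESeq2. Zinc finger genes on other chromosomes had 12 called higher and 3 lower of 241 (6.22%), with a median of 0.07. Other protein-coding genes of chromosome 19 had 69 called higher and 27 lower of 676 (14.2%), with a median of 0.04. These genes had a median mean count of 629, against 162 in the other zinc finger genes of the chromosome. The difference between these shares was not tested.

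The replicates differed in the same direction over many members. The median difference between replicate 1 and replicate 2, on the log2 CPM scale, was 0.18 in control and 0.24 in knockdown libraries, against 0.01 and 0.002 over all genes. Replicate 1 was the higher one in both groups in 35 of 54 members (64.8%), against 38.9% of all genes. This share was 46.8% in other zinc finger genes of chromosome 19 and 53.5% in those of other chromosomes. It was 30.9% in other genes of chromosome 19. Replicate 2 was the higher one in both groups in 5 members (ZNF317, ZNF136, ZNF180, ZNF416 and ZNF544). ZNF417, for example, differed by 0.56 in control and 0.42 in knockdown, ZNF234 by 0.52 and 0.43, and ZNF431 by 0.47 and 0.55. The medians were 0.07 and 0.14 in other zinc finger genes of chromosome 19, 0.08 and 0.12 in those of other chromosomes, and -0.06 and -0.04 in other genes of chromosome 19. In 36 members (66.7%) the mean size of the difference between replicates exceeded that between the conditions, against 45.0% of all genes. The first is a gap between single libraries and the second a gap between groups of 2, which vary less, so the measure leans towards the replicates. Cultures, RNA and library preparation cannot be told apart as the source of the replicate differences.

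**Figure D3:**
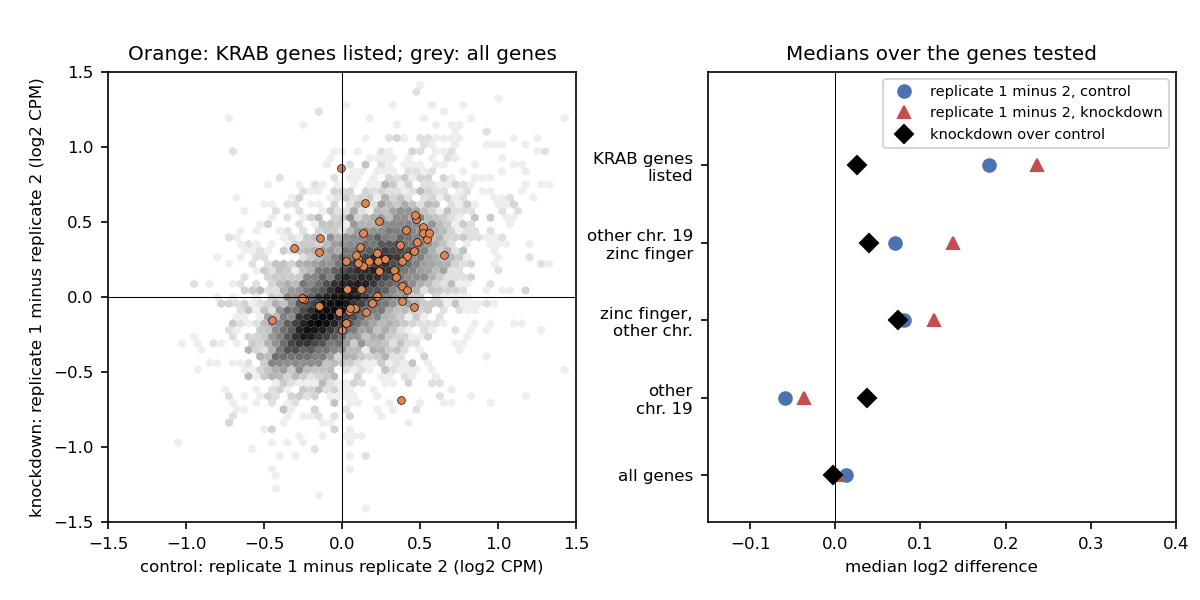
Left: difference between replicate 1 and replicate 2 (log2 CPM) in control (x) and knockdown (y) libraries, for the 54 tested members in orange over all genes tested in grey (darker where more genes lie, log scale; genes past the axis limits are not drawn). Right: medians of those differences (circles and triangles) and of the log2 fold change of knockdown over control (diamonds) for the members and the lists compared; the members' replicate medians, 0.18 and 0.24, lie further from 0 than their condition median, 0.03.

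With the replicate number as a block, so that the conditions are compared within a number, 13 members were called (9 higher, 4 lower), and 44.2% of all genes tested. The labels do not say that a number marks a shared culture or day, and 2 pairs are too few to show it from the data, so this fit is an alternative. The 13 were ZNF121, ZNF136, ZNF175, ZNF180, ZNF233, ZNF266, ZNF302, ZNF417, ZNF426, ZNF430, ZNF431, ZNF432 and ZNF529.

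Of 25 genes whose products work with KRAB proteins or act on the same chromatin, 24 were tested, with a median log2 fold change of 0.22. In edgeR, 4 were called higher (16.7%, against 10.8% of all genes called and 6.66% called higher). These 24 genes were more deeply covered, with a median mean count of 1400 against 457 for all genes. Their median standard error was 0.13 against 0.16. Whether depth accounts for the share called was not tested. None was called lower by edgeR or DESeq2, and the 7 with an unadjusted p below 0.05 in edgeR (29.2%, against 26.3% of all genes) were all higher after knockdown. DNMT1, the maintenance DNA methyltransferase, was at 145.2 and 153.2 CPM in controls and 329.0 and 318.3 CPM after knockdown, a log2 fold change of 1.12 (SE 0.13, edgeR adjusted p = 0.00117). UHRF1, which recruits DNMT1 to hemimethylated DNA, was at 60.85 and 58.67 against 109.3 and 101.3 CPM (0.82, SE 0.12, edgeR adjusted p = 0.00286).

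SUV39H2, an H3K9 methyltransferase, was at 14.31 and 12.93 against 19.46 and 20.06 CPM (0.54, SE 0.14, edgeR adjusted p = 0.0383). TRIM24, a relative of TRIM28, was at 33.70 and 35.93 against 49.44 and 47.55 CPM (0.48, SE 0.12, edgeR adjusted p = 0.0304). The knockdown libraries lay above the controls in each of the 4 genes. DNMT1 and UHRF1 were called whichever library was left out. SUV39H2 and TRIM24 lost their calls in each such fit, with edgeR adjusted p values of 0.0539 to 0.203 and 0.0771 to 0.156, and DESeq2 called TRIM24 but not SUV39H2 (adjusted p = 0.0665).

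The core of the KRAB complex did not pass the test. TRIM28 was at 373.9 and 390.7 CPM in controls and 490.2 and 519.1 CPM after knockdown, with no overlap (log2 fold change 0.40, 95% interval 0.10 to 0.71, edgeR adjusted p = 0.0933), and it was called by DESeq2 (adjusted p = 0.0374). SETDB1 was at 33.45 and 29.93 against 32.28 and 26.05 CPM (-0.12, edgeR adjusted p = 0.648). Of the HP1 genes, CBX1 was at 127.9 and 153.5 against 153.5 and 173.6 CPM (0.22, edgeR adjusted p = 0.359).

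CBX3 was at 219.0 and 236.5 against 257.3 and 283.6 CPM (0.25, edgeR adjusted p = 0.268). CBX5 was at 528.1 and 542.3 against 527.9 and 516.0 CPM (-0.04, edgeR adjusted p = 0.901). With the replicate block, TRIM28, CBX1 and CBX3 were called higher, and CBX5 was not called. ZFP57, which guards imprinted loci, had 0 counts in every library.

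**Figure D4:**
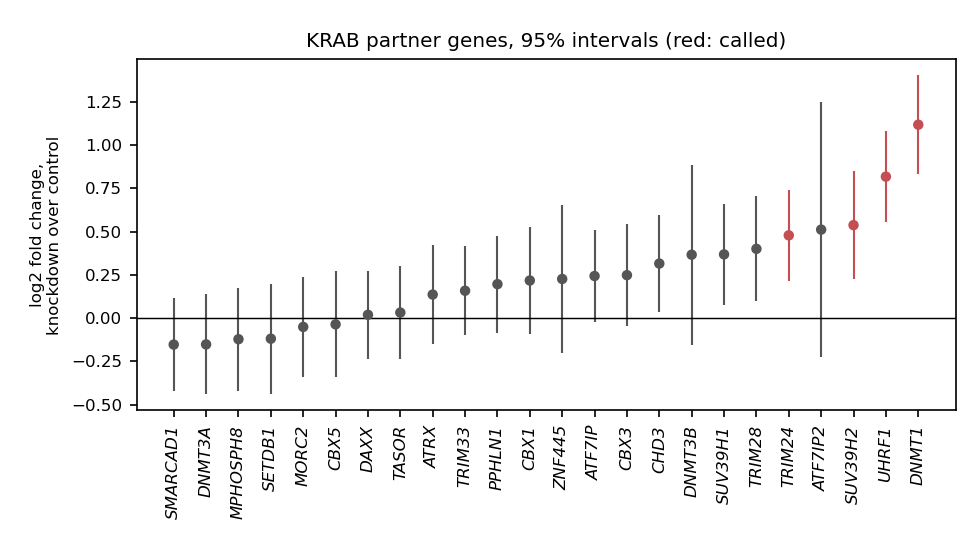
Log2 fold change, knockdown over control, of the 24 partner genes tested, ordered by value, with 95% intervals from the edgeR fit. Red marks the 4 called genes (TRIM24, SUV39H2, UHRF1 and DNMT1); TRIM28 lies above 0 with an interval of 0.10 to 0.71 and an adjusted p of 0.0933.

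The 3′ UTR of the canonical transcript was also read for the word GCAACC, on the transcript strand, where that 3′ UTR had 50 bases or more. It occurred in 24 of 53 members (45.3%) and in 2927 of 12385 genes (23.6%), while the median 3′ UTR was 2035 bases in members and 1376 in all genes. The 24 members with the word had a median log2 fold change of 0.06 and the 29 without it of -0.02, against 0.06 and -0.04 for all genes. ZNF266, ZNF121 and ZNF302 held it once and ZNF430 did not. A match is a description of the sequence.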

How the data were processed

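PolyA RNA of 2 control and 2 TOP2B knockdown samples was sequenced with single-end 65-bp reads (TruSeq RNA kit, per the methods, although a tag in the column headers reads stranded paired-end). The authors checked reads with FastQC 0.11.6, aligned them to GRCh38 with STAR 2.5.4a and counted genes of Gencode v24. The deposited values are raw counts per gene. Each column has an identical copy, and these 4 copies were not used. The strand setting is not stated, so overlapping genes on opposite strands may not be told apart.

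Symbols, exons and coding sequences were taken from GENCODE v44, with 41209 of 60725 identifiers given a symbol. Proteins were translated from canonical transcripts. A minimum of 10 counts in 2 or more libraries was set, and genes that met it were tested in edgeR 4.0.16 (glmQLFit and glmQLFTest, TMM, no covariate, R 4.3.3), with Benjamini-Hochberg adjustment over all 15356 genes and a threshold of 0.05; the common dispersion was 0.0117. Log2 CPM used a prior count of 2. Other scalings, DESeq2 1.42.0, other filters, a replicate block and the omission of each library were tried. Intervals cover only the counting error and the spread between these libraries.

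Members named with values are those called, the 6 largest differences of each sign, the 5 highest and 5 lowest levels per kb of exon, and the 3 smallest differences among members with a mean of at least 100 counts. Partner genes named are those called, TRIM28, SETDB1 and the HP1 genes. The members and lists were chosen with earlier results of these data known. The partner and marker lists come from general knowledge.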

Additional observations from a re-analysis of the deposited data

How the results depend on the processing

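Of all genes tested, 10.8% were called with TMM. That share is not given here for the other settings of this paragraph. A change in the members thus cannot be told apart from a change over all genes. The number of members called was 3 with TMM and with DESeq2 size factors, 2 with library size alone (ZNF266 and ZNF430), 2 in DESeq2's Wald test (ZNF121 and ZNF430, with 9 members given no adjusted p), 4 without a count filter (ZNF302 added) and 1 (ZNF430) among genes whose mean was 100 counts or more. Leaving out 1 library gave 2 to 3. The members' median log2 fold change stayed between 0.02 and 0.03 under these scalings, tests and filters, and ran from -0.09 to 0.14 when 1 library was left out, so that its sign rests on single libraries. With only the 46 tested members that have at least 80% of windows in no other gene, the median was 0.001 and 3 were called.

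With the replicate block 13 members, 31 other zinc finger genes of chromosome 19 and 15 partner genes were called, against 3, 7 and 4 without it. Of all genes tested, 44.2% were called with the block and 10.8% without it. That share is not given here for the other fits. Leaving out 1 library, an alternative added after the data had been seen for these lists, gave 4 to 9 other zinc finger genes (4 without control replicate 2 and without knockdown replicate 1) and 2 partner genes (DNMT1 and UHRF1) in each fit. Over all genes tested, deviations from the group means correlated at 0.48 between libraries of the same number, and over the members at 0.26. The labels give no shared origin, so the numbers were not taken as pairs.

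Among the 21 named members, 204 values under 10 alternatives were compared: 169 kept their direction and side of the threshold, 3 kept their direction but had no adjusted p in DESeq2 (ZNF233, ZNF442 and ZNF223), 14 changed sign, 9 lost a call and 9 gained one. The changes of sign were all in uncalled members with small differences. DESeq2's Wald test gave -0.006 for ZNF260 and -0.002 for ZNF382. Leaving out 1 library gave -0.14 to 0.10 for ZNF317, -0.34 to 0.12 for ZNF544, -0.049 to 0.072 for ZNF260, -0.27 to 0.53 for ZNF223, -0.12 to 0.23 for ZNF490, -0.15 to 0.11 for ZNF548 and -0.10 to 0.11 for ZNF382. The cause was not tested. Depth limits the genes with few reads: for ZNF442, ZNF506, ZNF223 and ZNF233 a 2-fold change was within the interval.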
